A study of Rattus norvegicus with 20 samples.

Results

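Nuclear receptors are transcription factors switched by small molecules, and in liver they read the chemical state of the portal blood. Nr1i2 (the pregnane X receptor, PXR) and Nr1i3 (the constitutive androstane receptor, CAR) sense drugs and other foreign compounds and turn on the P450 enzymes that clear them. Nr1h3 (liver X receptor alpha) senses oxysterols, Nr1h4 (the farnesoid X receptor, FXR) senses bile acids and Ppara senses fatty acids, and each of these binds DNA as a heterodimer with Rxra, the shared retinoid X receptor partner. Hnf4a is the homodimeric receptor that maintains hepatocyte identity, Nr0b2 (small heterodimer partner, SHP) is a receptor without a DNA-binding domain that represses others, and Nr3c1 and Esr1 are the receptors of glucocorticoids and estrogen. The set described here was these 10 genes, taken by symbol from the RAE230A array annotation. They are covered by 12 ProbeSets among the 15923 of the array, which name 10412 genes in all, and no ProbeSet of several symbols named a member.

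Liver mRNA was measured on Affymetrix RAE230A arrays in 20 male rats aged 10 to 12 weeks, 4 rats for each of 5 groups with a separate array for every rat. Line-A and H/W (Han/Wistar Kuopio, a closed colony) carry the variant Ahr allele, whereas Line-C, L-E (Long-Evans Turku/AB, in-bred) and S-D (Sprague-Dawley, out-bred) carry the wild-type allele, and both lines descend from crosses of L-E with H/W. Rats had received corn oil by gavage 19 h before sampling according to the treatment notes for all groups, although the S-D labels say only control, so no untreated liver is included. Values are GC-RMA signals in log2 space, in which 1 unit is a doubling, and a mean signal under 4 was treated as not expressed. Of the 15923 ProbeSets, 7168 reached this limit.

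The arrays were judged before the receptors were compared. The median signal of the arrays lay between 3.47 and 3.69, and correlations between arrays between 0.985 and 0.998. The 9 hepatocyte markers on the array, among them Alb with a mean signal of 16.65, averaged 14.70 to 14.95 in every liver. All S-D arrays were scanned on a day of their own and both lines on another. S-D and the lines likewise each had a chip lot used for no other group, and S-D alone had a different operator. Differences of S-D, and of the lines with the parental strains, cannot be told apart from scan day and chip lot, nor those of S-D from operator. H/W replicate 3 stood apart by several measures, though not by all. Its Gapdh 3′ control signal exceeded the 5′ one by 0.811, against 0.165 to 0.578 on the other 19 arrays, its array median was the lowest, it was the only array from fluidics station 2, and it lay farthest from its group median in 8 of the 10 receptor ProbeSets with a mean of 4 or more. Other measures did not single it out. Its beta-actin 3′ minus 5′ signal was 2.24, against 2.26 in Line-C replicate 3. Its hexokinase one was -0.281, against -0.279 in L-E replicate 2. It had 112 ProbeSets with a mean of 4 or more lying over 1 unit from the group median. Line-A replicate 1 had 116. Results are given with and without H/W replicate 3, and its part in each result was not tested otherwise.

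In the livers 10 receptor ProbeSets had a mean of 4 or more, and these are called expressed here. Mean signals over the 20 rats were 7.65 for Nr1i2 (1369270_at), 8.12 for Nr1i3 (1368797_at), 7.75 for Rxra (1369101_at), 10.05 for Nr1h3 (1387365_at), 8.52 for Nr1h4 (1369073_at), 6.97 for Nr0b2 (1368376_at), 9.78 and 8.45 for Hnf4a (1369289_at and 1382496_at) and 8.19 for Nr3c1 (1368221_at). Such signals depend on how each ProbeSet binds, so they do not order the genes by transcript number. The second Nr3c1 ProbeSet, 1368222_at, lay at the limit with 4.02. Ppara (1387278_at) at 1.95 and Esr1 (1387704_at) at 2.30 were under the limit in all 20 rats, and the livers gave no usable Ppara or Esr1 level on this array.

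L-E stood at an end of the order of group means in 9 of the 10 expressed receptor ProbeSets, whereas it did so in 46.6% of all expressed ProbeSets (9 of 10 and 46.0% when H/W replicate 3 was left out). It was highest for both xenosensors Nr1i2 and Nr1i3, for Rxra and for both Hnf4a ProbeSets, and lowest for Nr1h3, Nr1h4, Nr0b2 and Nr3c1 (1368221_at). Tested pair by pair at 1% FDR over all ProbeSets, only Line-C and L-E gave calls, 2 of 12 ProbeSets against a background of 3.71% (7.46% of expressed ProbeSets). These were Nr1h3 and Nr1h4, both higher in Line-C. The other 9 pairs gave 0 calls. Their backgrounds were 5.66% for Line-A and L-E, 6.59% for Line-A and S-D, 5.07% for L-E and S-D, 4.30% for Line-C and S-D, 3.27% for H/W and S-D, 2.84% for Line-A and H/W, 1.70% for Line-C and H/W, 1.38% for H/W and L-E and 0.534% for Line-A and Line-C. In the same limma fit 5 ProbeSets stood at an unadjusted p under 0.05 between Line-A and L-E, 5 between L-E and S-D, 3 between H/W and L-E, 1 each between Line-A and S-D, Line-C and H/W, and H/W and S-D, and 0 between Line-A and Line-C, Line-A and H/W, and Line-C and S-D. The F-test over all 5 groups at 0.1% FDR called 0 of 12 against a background of 4.60%, with 6 at an unadjusted p under 0.05. The share of all ProbeSets at an unadjusted p under 0.05 was not counted for the pairs or the F-test. These unadjusted counts therefore say little about the receptors. These liver samples are bulk tissue, in which fewer cells of a type and less RNA per cell cannot be told apart.

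**Figure D1:**
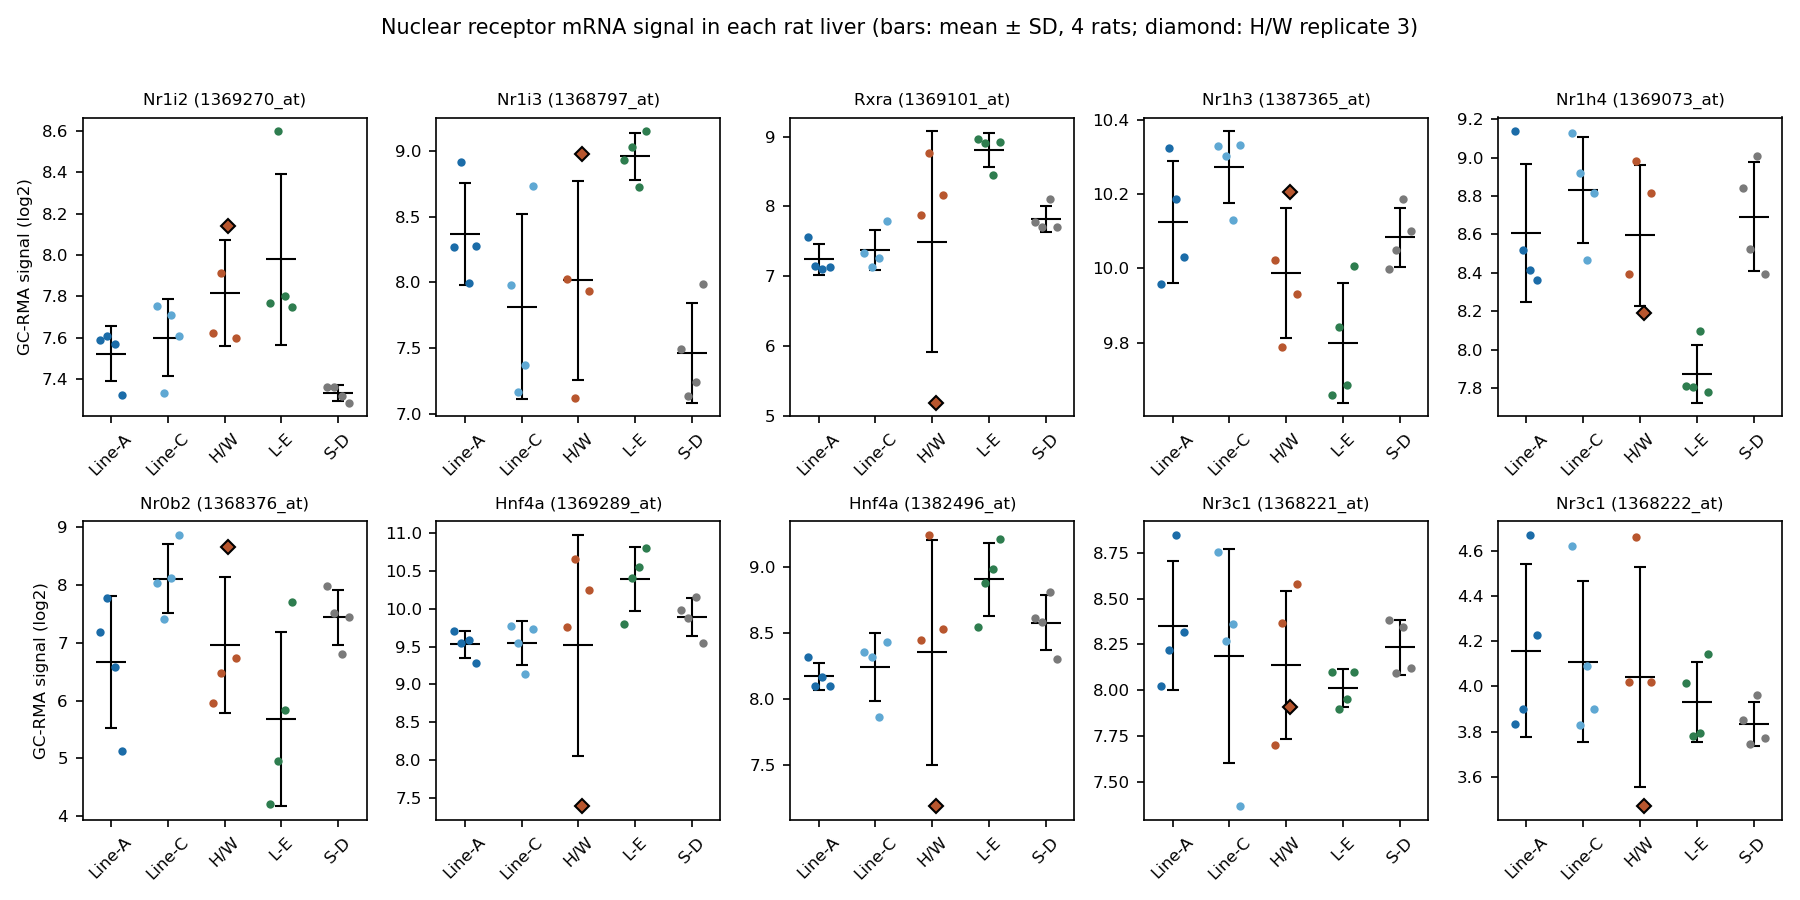
GC-RMA signal in log2 space (vertical axis, scaled per panel) of the 10 expressed receptor ProbeSets in each rat, by group, with the mean ± SD of 4 rats. The 4 L-E rats lie between 7.78 and 8.10 for Nr1h4, under the other 16 rats, and the diamond of H/W replicate 3 lies at 5.19 for Rxra and 7.39 for Hnf4a (1369289_at).

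The promoters of the members that bear most on these results are shown for reference: Nr1h3 as a called member, Nr0b2 as the member with the widest spread among rats, and Hnf4a, whose 2 ProbeSets were both past 1% FDR between Line-A and L-E when H/W replicate 3 was left out. Of the 2 annotated starts of Hnf4a, the downstream one is printed. Each runs from 250 bases before the start of transcription to 50 bases after it, 5′ to 3′ on the strand of the gene, from RefSeq on GRCr8. The table held 11 such windows for 9 of the 10 genes and none for Nr1h4. Capitals mark matches to 3 short motifs, searched on both strands: TCAAGG, the core bound by the orphan receptors of the NR5A family, GTTAAT, the core bound by HNF1 factors, and TATAAA, the TATA box. The AGGTCA motif read by most nuclear receptors, searched likewise, had no match in the 11 windows.
Nr1h3 (chr3:97623180-97623479, minus strand, GC content 48.0%): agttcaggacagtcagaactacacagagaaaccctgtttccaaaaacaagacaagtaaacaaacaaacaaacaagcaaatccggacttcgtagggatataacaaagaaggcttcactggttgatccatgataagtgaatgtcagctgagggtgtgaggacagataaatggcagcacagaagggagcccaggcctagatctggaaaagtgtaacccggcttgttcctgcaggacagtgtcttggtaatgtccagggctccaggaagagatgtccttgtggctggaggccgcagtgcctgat
Nr0b2 (chr5:151062910-151063209, plus strand, GC content 52.3%): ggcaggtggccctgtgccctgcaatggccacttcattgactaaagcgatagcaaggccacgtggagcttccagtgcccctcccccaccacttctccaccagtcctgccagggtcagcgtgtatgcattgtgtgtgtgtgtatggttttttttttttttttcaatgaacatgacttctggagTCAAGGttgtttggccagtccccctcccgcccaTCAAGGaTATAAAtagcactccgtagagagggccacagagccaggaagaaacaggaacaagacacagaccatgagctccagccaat
Hnf4a (chr3:172641586-172641885, plus strand, GC content 55.3%): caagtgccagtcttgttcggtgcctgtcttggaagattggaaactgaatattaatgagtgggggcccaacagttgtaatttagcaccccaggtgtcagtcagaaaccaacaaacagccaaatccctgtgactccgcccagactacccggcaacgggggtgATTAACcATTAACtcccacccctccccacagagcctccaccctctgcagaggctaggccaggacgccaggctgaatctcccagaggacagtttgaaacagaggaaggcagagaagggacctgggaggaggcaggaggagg

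The Nr0b2 window held TCAAGG at positions -69 and -36 from the start and TATAAA at -29, the second TCAAGG and the TATA box lying side by side without overlap. The Hnf4a window held the reverse of GTTAAT at -90 and -83. Among all 33469 promoter windows of this length, 14.8% held TCAAGG, 7.45% GTTAAT, 14.2% TATAAA and 16.2% AGGTCA. A match is a description of the letters only.

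By group means the xenosensors were highest in L-E. Nr1i2, which turns on the Cyp3a genes, had signals of 7.59, 7.61, 7.57 and 7.32 in Line-A livers, 7.75, 7.33, 7.71 and 7.61 in Line-C livers, 7.62, 7.91, 8.14 and 7.60 in H/W livers, 7.76, 8.60, 7.80 and 7.75 in L-E livers, and 7.36, 7.36, 7.32 and 7.28 in S-D. All L-E rats and all H/W rats lay above all S-D rats, and L-E replicate 2 was the highest of all. The place of L-E above H/W in the means rested on that rat. The L-E rats other than replicate 2 lay under the H/W mean of 7.82, and the medians were 7.78 in L-E and 7.76 in H/W. L-E averaged 7.98 ± 0.41 and S-D 7.33 ± 0.04 (SD, n = 4 each), a difference of 0.65 ± 0.16 (SE; 1.57-fold, adjusted p = 0.0178), which passed 5% but not 1% FDR. Line-A minus L-E was -0.46 ± 0.16 (adjusted p = 0.0493), and ran from -0.56 to -0.25 over the settings run. The S-D rats differed from each other by less than 0.1 unit, with the smallest SD of the groups.

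Nr1i3, which turns on the Cyp2b genes, spread more among rats. Its signals were 8.27, 8.91, 8.00 and 8.28 in Line-A livers, 7.98, 7.17, 7.38 and 8.73 in Line-C livers, 8.02, 7.13, 8.97 and 7.94 in H/W livers, 8.93, 9.03, 8.73 and 9.15 in L-E livers, and 7.49, 7.14, 7.24 and 7.99 in S-D. The L-E rats were uniformly high, and single rats of Line-A, Line-C and H/W reached their range. L-E averaged 8.96 ± 0.18 against 7.47 ± 0.38 in S-D, a difference of 1.49 ± 0.36 (SE; 2.81-fold, adjusted p = 0.0125), and all 4 L-E rats lay above all 4 S-D rats. Line-C minus L-E was -1.14 ± 0.36 (adjusted p = 0.0440), with overlap through Line-C replicate 4. Line-A exceeded S-D by 0.90 ± 0.36 (adjusted p = 0.0546) without overlap between the groups. Markers of other cells moved with the comparison of L-E and S-D. The endothelial markers, 7 of 11 on the array, averaged 5.50 to 5.58 in L-E and 5.73 to 5.77 in S-D, although Stab1 among them was higher in L-E. The stellate and fibroblast markers, 12 of 12, averaged 4.31 to 4.58 in L-E and 4.96 to 5.72 in S-D. Cholangiocyte and lymphocyte markers likewise averaged lower in L-E without overlap, but only 2 of 7 and 3 of 8 on the array were expressed. The lymphocyte ranges nearly touched, with 4.285 as the highest in L-E and 4.289 as the lowest in S-D. Spp1, Tff3, Cd3d, Cd2 and Cd79b, all under the limit, were slightly higher in L-E. Erythroid and neutrophil markers ran the other way, 6.03 to 6.74 in L-E and 5.68 to 5.97 in S-D. Their part in the result was not tested.

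Rxra, the common partner, was lower in both lines than in L-E, by differences whose call at 1% FDR depended on H/W replicate 3. Its signals were 7.56, 7.15, 7.11 and 7.14 in Line-A livers, 7.34, 7.13, 7.25 and 7.78 in Line-C livers, 7.88, 8.76, 5.19 and 8.16 in H/W livers, 8.97, 8.90, 8.44 and 8.92 in L-E livers, and 7.78, 7.71, 8.10 and 7.71 in S-D. All L-E rats lay above all Line-A, Line-C and S-D rats, H/W overlapped with L-E through replicate 2, and H/W replicate 3 lay under every other rat. Line-A minus L-E was -1.57 ± 0.50 (SE; 2.97-fold lower, adjusted p = 0.0348), and Line-C minus L-E -1.43 ± 0.50 (adjusted p = 0.0572). With the 20 arrays neither passed 1% FDR. Kupffer cell and macrophage markers, 8 of 13 on the array, averaged 7.52 to 7.62 in Line-A and 8.18 to 8.76 in L-E, and the part of this in the Line-A differences was not tested.

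Without H/W replicate 3, Rxra was the only member past the F-test at 0.1% FDR (adjusted p = 0.000133), against 5.23% of all ProbeSets. The same differences then had smaller errors, -1.57 ± 0.19 for Line-A minus L-E (adjusted p = 9.43e-05) and -1.43 ± 0.19 for Line-C minus L-E (adjusted p = 0.000264). L-E also exceeded S-D by 0.99 ± 0.19 (adjusted p = 0.00290), and Line-A lay under the 3 remaining H/W rats by 1.03 ± 0.20 (adjusted p = 0.00748), H/W then averaging 8.27 ± 0.45 (SD, n = 3). The whole table changed with that array too: at 1% FDR, the share of ProbeSets called between Line-A and L-E was 5.66% with the array and 23.4% without it. Members called then were 5 between Line-A and L-E (Rxra, Nr1h3, Nr1h4 and both Hnf4a ProbeSets), 3 between Line-C and L-E (Rxra, Nr1h3 and Nr1h4; background 10.6%), 2 between L-E and S-D (Rxra and Nr1i3; 5.54%) and 1 between Line-A and H/W (Rxra; 2.26%). Esr1, under the limit, was called between Line-A and S-D (34.0%) and between H/W and S-D (6.27%).

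Hnf4a, which drives apolipoprotein and clotting factor genes, was highest in L-E on both ProbeSets, and H/W replicate 3 was the lowest rat on both. S-D came next in the order of means with that array and H/W without it, when H/W averaged 10.23 ± 0.45 on 1369289_at and 8.74 ± 0.44 on 1382496_at (SD, n = 3). For 1369289_at the signals were 9.71, 9.55, 9.59 and 9.28 in Line-A livers, 9.78, 9.55, 9.13 and 9.73 in Line-C livers, 9.77, 10.67, 7.39 and 10.25 in H/W livers, 9.80, 10.40, 10.56 and 10.81 in L-E livers, and 9.98, 9.88, 10.15 and 9.55 in S-D. All L-E rats lay above all rats of both lines. For 1382496_at the group means were 8.17 ± 0.10 in Line-A livers, 8.24 ± 0.26 in Line-C livers, 8.35 ± 0.86 in H/W livers, 8.91 ± 0.28 in L-E and 8.58 ± 0.21 in S-D (SD, n = 4 each), and again the L-E rats did not overlap with either line.

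In the fit of 20 arrays Line-A minus L-E was -0.86 ± 0.48 (SE, adjusted p = 0.150) for 1369289_at and -0.74 ± 0.29 (adjusted p = 0.0632) for 1382496_at, and no Hnf4a difference passed 5% FDR. Without H/W replicate 3 these became -0.86 ± 0.22 (adjusted p = 0.00820) and -0.74 ± 0.18 (adjusted p = 0.00684), past 1% FDR. The Line-C differences with L-E, -0.84 ± 0.22 and -0.66 ± 0.18, then passed 5% (adjusted p = 0.0124 and 0.0133).

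The sterol and bile acid receptors ran the other way, lowest in L-E. Nr1h3, which turns on Srebf1 and cholesterol efflux genes, had signals of 9.96, 10.32, 10.19 and 10.03 in Line-A livers, 10.33, 10.30, 10.13 and 10.33 in Line-C livers, 10.02, 9.79, 10.21 and 9.93 in H/W livers, 9.66, 9.84, 9.69 and 10.01 in L-E livers, and 10.00, 10.05, 10.19 and 10.10 in S-D. All Line-C rats lay above all L-E rats, whereas Line-A overlapped with L-E through replicate 1. Line-C averaged 10.27 ± 0.10 and L-E 9.80 ± 0.16 (SD, n = 4 each), a difference of 0.47 ± 0.10 (SE; 1.39-fold, adjusted p = 0.00546). Line-A exceeded L-E by 0.33 ± 0.10 (adjusted p = 0.0267). Nr1h3 was the steadiest expressed member, with a within-strain SD of 0.14.

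Nr1h4 separated L-E from every other group. Its signals were 9.14, 8.52, 8.41 and 8.36 in Line-A livers, 9.13, 8.92, 8.47 and 8.81 in Line-C livers, 8.39, 8.98, 8.19 and 8.82 in H/W livers, 7.81, 7.81, 8.10 and 7.78 in L-E livers, and 8.84, 8.53, 9.01 and 8.39 in S-D. All 4 L-E rats lay under all 16 others, a separation of L-E in either direction that 2.39% of expressed ProbeSets showed. Line-C averaged 8.83 ± 0.28 and L-E 7.88 ± 0.15 (SD, n = 4 each), a difference of 0.96 ± 0.20 (SE; 1.94-fold, adjusted p = 0.00699). Line-A minus L-E was 0.73 ± 0.20 (adjusted p = 0.0212), H/W minus L-E 0.72 ± 0.20 (adjusted p = 0.0640) and L-E minus S-D -0.82 ± 0.20 (adjusted p = 0.0150). The 4 groups other than L-E had means between 8.59 and 8.83, within the spread of their rats.

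Both calls between Line-C and L-E were sensitive to processing. They passed 1% FDR without H/W replicate 3 (adjusted p = 0.00301 for Nr1h3 and 0.00437 for Nr1h4), but not when array medians were set equal (adjusted p = 0.0434 and 0.0153), nor with scan day as a random block (0.0448 and 0.0634), nor without L-E replicate 1, 2 or 3 or Line-C replicate 1, 2 or 4, each of which left 0 calls. The array medians were 3.54 to 3.63 in Line-C and 3.49 to 3.52 in L-E. Other measures also differed between these groups. The 9 hepatocyte markers averaged 14.87 to 14.92 in Line-C and 14.75 to 14.83 in L-E. The 12 stellate and fibroblast markers, 9 of them expressed, averaged 4.585 to 5.09 in Line-C and 4.31 to 4.582 in L-E, ranges that nearly touched. Acta2 among them ran the other way, 4.73 in Line-C and 5.40 in L-E, as did the hepatocyte marker Cps1 slightly. The Gapdh 3′ minus 5′ signal was 0.379 to 0.498 in Line-C and 0.234 to 0.337 in L-E. Their part in the result was not tested.

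**Figure D2:**
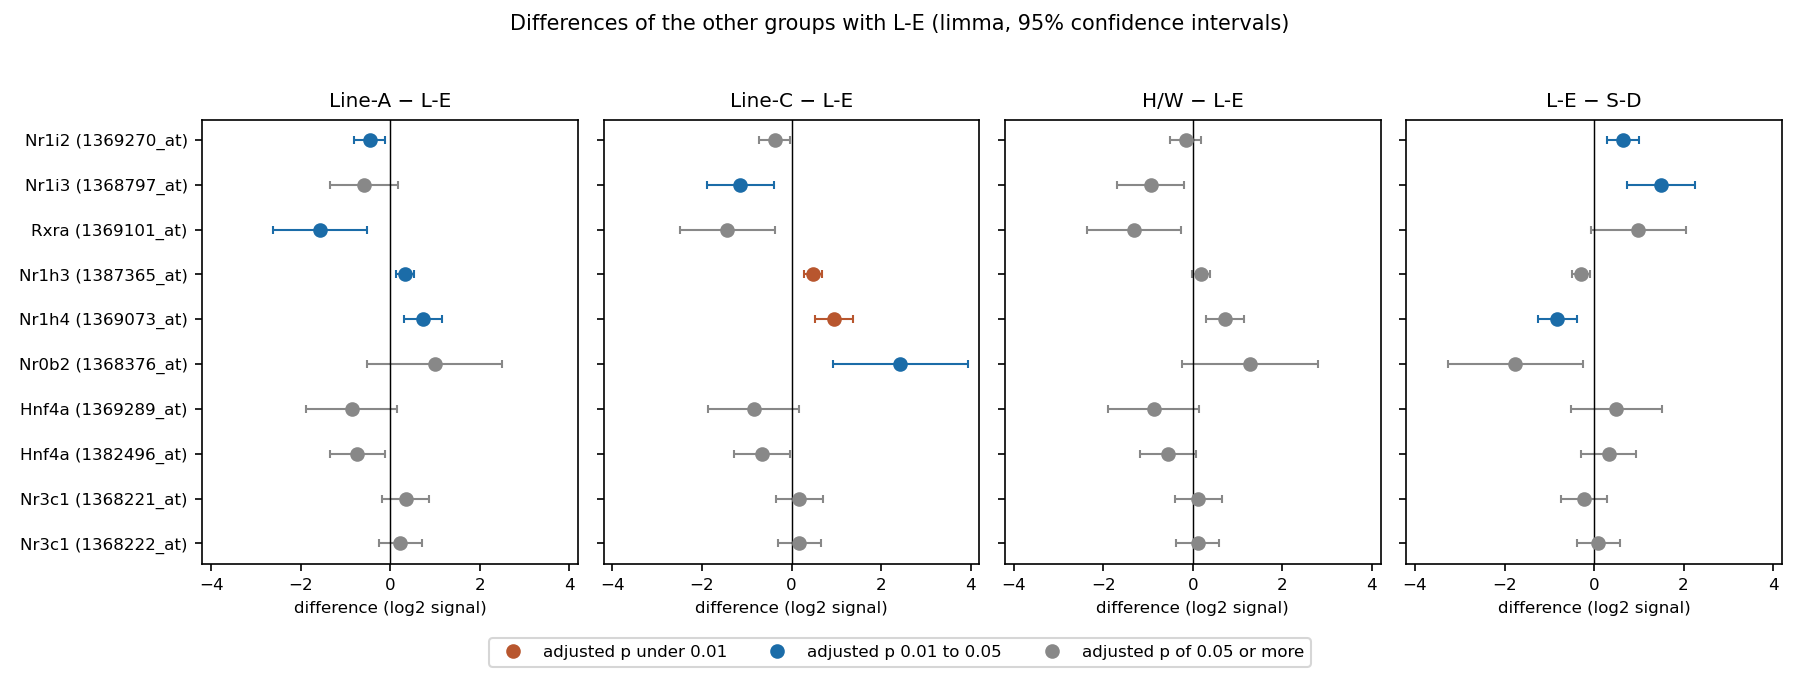
Difference in log2 signal (horizontal axis) for the 10 expressed receptor ProbeSets in the 4 pairs that involve L-E, with 95% confidence intervals from limma. Nr1h3 at 0.47 and Nr1h4 at 0.96 for Line-C minus L-E are the points with an adjusted p under 0.01, and the intervals of Rxra, Nr0b2 and Hnf4a are wide.

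Nr0b2, which FXR turns on and which represses bile acid synthesis, was the most variable member. Its signals were 7.19, 7.77, 6.58 and 5.13 in Line-A livers, 8.03, 7.41, 8.12 and 8.87 in Line-C livers, 5.96, 6.47, 8.66 and 6.74 in H/W livers, 4.21, 4.96, 5.84 and 7.70 in L-E livers, and 7.98, 7.51, 6.81 and 7.45 in S-D. L-E replicates 1 to 3 lay under every rat of Line-C, H/W and S-D, and L-E replicate 4 lay within their range. Line-C averaged 8.11 ± 0.60 and L-E 5.68 ± 1.51 (SD, n = 4 each), a difference of 2.43 ± 0.71 (SE; 5.39-fold, adjusted p = 0.0364). It was the largest difference of any member, but its 95% confidence interval ran from 0.92 to 3.94. Line-A minus Line-C was -1.44 ± 0.71 (adjusted p = 0.614).

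The glucocorticoid receptor showed no difference that passed any threshold here. Nr3c1 (1368221_at) had signals of 8.02, 8.22, 8.85 and 8.32 in Line-A livers, 8.75, 8.27, 8.36 and 7.37 in Line-C livers, 7.70, 8.37, 7.91 and 8.58 in H/W livers, 8.10, 7.90, 7.95 and 8.10 in L-E livers, and 8.39, 8.09, 8.34 and 8.12 in S-D. The groups overlapped throughout, and the group means spanned 0.34 unit (F-test adjusted p = 0.742). The second ProbeSet, near the limit, had group means between 3.83 and 4.16 (F-test adjusted p = 0.637). Esr1, under the limit, lay between 2.21 and 2.36 in the 20 rats.

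At 5% FDR more members passed, although the background rose as well. Line-A and L-E then differed in 4 of 12 (Nr1i2, Rxra, Nr1h3 and Nr1h4) against a background of 27.5%, Line-C and L-E in 4 of 12 (Nr1i3, Nr1h3, Nr1h4 and Nr0b2) against 15.8%, and L-E and S-D in 3 of 12 (Nr1i2, Nr1i3 and Nr1h4) against 9.59%. The other 7 pairs gave 0 at 5%. Without L-E replicate 2, Line-A and L-E gave 0 of 12 at 5% (background 9.73%). Leaving out H/W replicate 3 gave more calls at 5% over the whole table as well: 7 of 12 between Line-A and L-E (background 54.5%), 8 between Line-C and L-E (46.6%), 4 between H/W and L-E (38.5%), 4 between L-E and S-D (10.2%), 3 between Line-A and S-D (57.5%), 2 between Line-C and H/W (3.85%) and 1 each between Line-A and H/W (5.63%), Line-C and S-D (49.5%) and H/W and S-D (45.9%). The F-test gave 4 of 12 at 5% FDR (Nr1i2, Nr1i3, Nr1h3 and Nr1h4) against 30.5%. Groups did not overlap between Line-A and L-E in 5 of the 10 expressed ProbeSets (34.5% of all expressed), between Line-C and L-E in 5 (29.4%) and between L-E and S-D in 4 (28.9%). Between H/W and L-E it was 1, Nr1h4 (12.3%), and 2 of 10 when H/W replicate 3 was left out (24.1%).

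The receptors varied among rats of a strain more than most genes. The within-strain SD had a median of 0.398 over the 10 expressed ProbeSets and of 0.185 over all 7168 expressed ProbeSets. Nr0b2 (1.05), Rxra (0.74), Hnf4a (0.71 for 1369289_at) and Nr1i3 (0.53) lay at the 99.7th, 99.1st, 98.9th and 97.0th percentiles of expressed ProbeSets, whereas Nr1h3 lay at the 28.4th. Leaving out H/W replicate 3, the SDs of Rxra and Hnf4a (1369289_at) were 0.28 (81.4th percentile) and 0.33 (88.2nd), those of Nr0b2 and Nr1i3 0.95 (99.6th) and 0.46 (95.7th), and the medians 0.288 for the members and 0.176 for all expressed ProbeSets. The ratio of within-strain to total variance (W/T), which is 1 where strain accounts for none of the variance, was 0.43 for Nr1h4 and Nr1h3, 0.52 for Nr1i3, 0.54 for Nr1i2, 0.67 for Nr0b2, 0.68 for Rxra, 0.97 and 0.81 for Hnf4a and 1 for both Nr3c1 ProbeSets. The median was 0.67, against 0.62 for all expressed ProbeSets. When H/W replicate 3 was left out, W/T became 0.16 for Rxra and 0.46 and 0.45 for Hnf4a, and the median of the members 0.458, against 0.574 for all expressed ProbeSets.

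**Figure D3:**
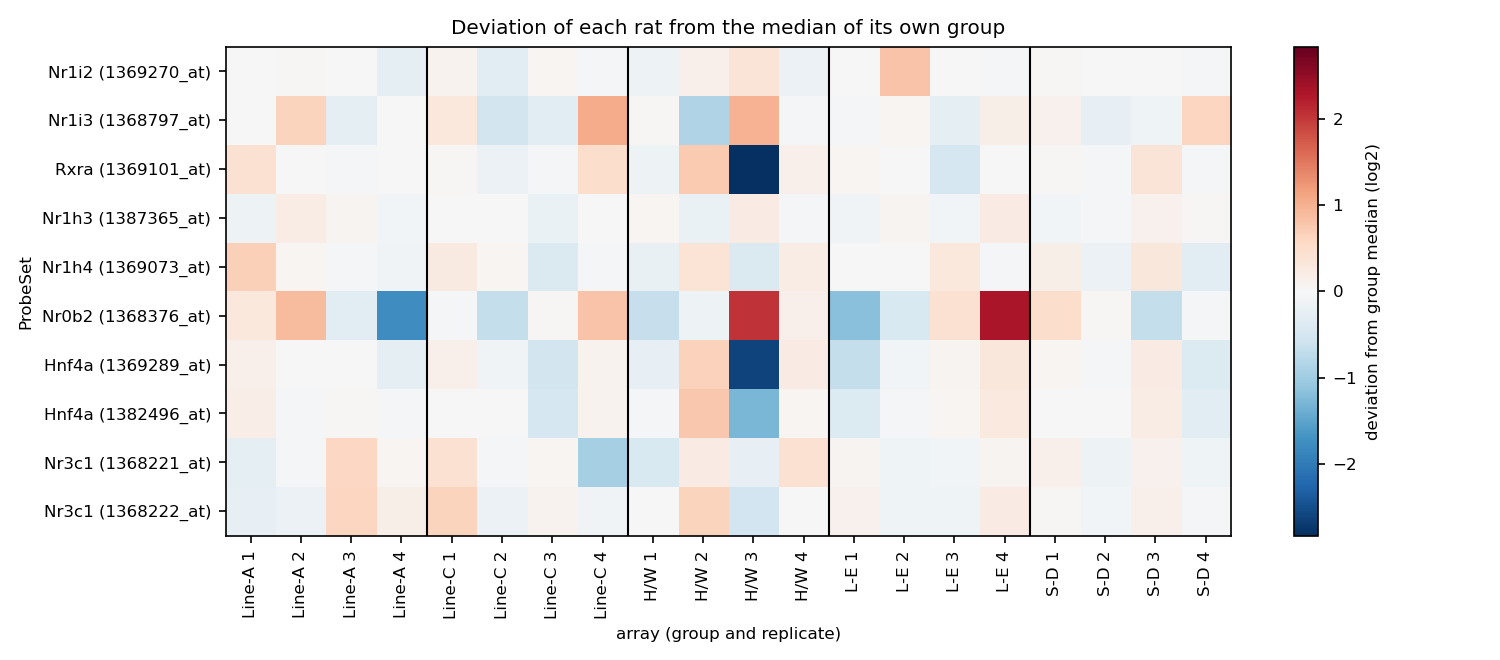
Deviation of each rat (columns) from the median of its own group, in log2 signal (colour), for the 10 expressed receptor ProbeSets (rows). H/W replicate 3 is low for Rxra, by 2.83, and for Hnf4a and high for Nr0b2, and Nr0b2 has strong colours in Line-A, H/W and L-E.

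The variant Ahr allele was compared through an additive genetic model, in which strain background and the allele shared by Line-A and H/W each had a coefficient. Both lines are coded alike in strain background, and for every member the Ahr coefficient equals Line-A minus Line-C. H/W does not shift its value. The Ahr coefficient passed 5% FDR for 0 of 12 ProbeSets against a background of 0.659%. For none was its unadjusted p under 0.05, a share that was not counted over all ProbeSets. The largest was Nr0b2 at -1.44 (adjusted p = 0.907), followed by Nr1i3 at 0.55. The same values, as Line-A minus Line-C in the pairwise fit, lay between -0.22 and 0.55 for the other expressed members. Their intervals there were wide, from -0.21 to 1.31 for Nr1i3 and from -1.20 to 0.92 for Rxra.

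Group means of the lines lay outside both parents for several members. The share of all expressed ProbeSets placed so was not counted, and lines and parents differed in scan day and chip lot. Both lines lay under both parents in Nr1i2, Rxra and Hnf4a (1382496_at), and above both in Nr1h3, Nr1h4 and both Nr3c1 ProbeSets, by group means of expressed ProbeSets. Several of these positions rested on H/W replicate 3. Without that array both lines still lay under both parents in Nr1i2, Rxra and Hnf4a (1382496_at) and above both in Nr1h3, and this also held for Hnf4a (1369289_at, under both) and Nr0b2 (above both). For Nr1h4 Line-A then lay between the parents, for Nr1i3 and Nr3c1 (1368221_at) Line-C did, and for Nr3c1 (1368222_at) both lines did. A line differing from both parents in 1 direction at 5% FDR was found for 0 of 12 ProbeSets in Line-A (background 4.12%) and 0 of 12 in Line-C (2.14%). Leaving out H/W replicate 3 made these 1 (3.72%) and 2 (2.36%). H/W minus L-E and Line-A minus Line-C, each a variant Ahr group against a wild-type one, among parents and among lines, had opposite signs for Nr1i3 (-0.94 in the parents and 0.55 in the lines), Nr1h4 (0.72 and -0.22), Nr0b2 (1.28 and -1.44) and Nr1h3 (0.19 and -0.15). The difference of the contrasts had an unadjusted p under 0.05 in these 4, a share that was not counted over all ProbeSets. It passed 5% FDR in 0 of 12 (adjusted p of 0.119 or more, background 2.01%).

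H/W and L-E were also compared within scan day, since 2 H/W and 3 L-E arrays shared a day. H/W minus L-E within that day was 0.69 for Nr1h4, -0.92 for Nr1i3, 1.40 for Nr0b2 and -1.78 for Rxra, against 0.72, -0.94, 1.28 and -1.31 over all arrays. The signs were the same. The lowest adjusted p of a member in the within-day limma fit was 0.721, for Nr1h4. The share of all ProbeSets called in that fit was not counted, so this says little about the members. H/W replicate 3 was among the arrays of that day.

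Transcripts that receptors regulate were compared with the receptors by lists. Of 17 expressed CAR and PXR target genes, 6 passed the F-test at 0.1% FDR, against 8.98% of 5388 expressed genes. Cyp3a9, a steroid and drug hydroxylase, had group means of 10.74 ± 0.27 in Line-A livers, 11.06 ± 0.16 in Line-C livers, 10.56 ± 0.35 in H/W livers, 10.29 ± 0.13 in L-E and 9.34 ± 0.58 in S-D (SD, n = 4 each; adjusted p = 0.000419). Cyp3a2, the male-specific Cyp3a enzyme of rat liver, was highest in S-D at 14.54 and lowest in Line-A at 13.41. Ephx1, microsomal epoxide hydrolase, was highest in S-D at 12.92 and lowest in Line-C at 11.26, and Cyp2a1, a testosterone hydroxylase, was highest in L-E at 8.95 and lowest in Line-C at 7.65. Cyp2b3 was highest in S-D at 13.54 and lowest in Line-C at 12.40. The direction of the list differed between pairs: Line-C against S-D gave 1 higher and 5 lower at 1% FDR, against 3.23% and 4.86% of all expressed genes, Line-A against S-D gave 3 and 3, against 5.09% and 7.44%, and L-E against S-D 2 and 2, against 3.73% and 5.83%.

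The PPARA targets, mainly enzymes of fatty acid oxidation, moved in a single direction between L-E and S-D. Of 30 expressed genes, 11 were higher and 0 lower in L-E at 1% FDR, against 3.73% higher and 5.83% lower over all expressed genes, and the median difference was 0.50, against -0.02 for all. Leaving out H/W replicate 3 gave 10 and 0, against 225 higher and 331 lower of 5388 expressed genes in that fit. Ehhadh, a peroxisomal oxidation enzyme, averaged 13.07 ± 0.49 in L-E and 11.45 ± 0.22 in S-D, and Eci1, an isomerase of unsaturated fatty acids, 11.75 ± 0.52 in L-E and 10.07 ± 0.39 in S-D. Line-A against L-E gave 0 higher and 6 lower, against 5.01% and 5.66% of expressed genes, and 0 and 10 when H/W replicate 3 was left out, against 9.76% and 8.93% of expressed genes in that fit. The Ppara ProbeSet itself was under the limit in both strains.

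Of 11 expressed LXR targets, a list that holds Nr1h3 itself, 2 passed the F-test. For this list and the next the share of all expressed genes was 8.98%. Mlxipl, the carbohydrate-responsive factor ChREBP, was highest in L-E at 9.28 and lowest in S-D at 7.21. Abcg1, a sterol exporter, was highest in S-D at 5.24. In the other groups Abcg1 lay near the limit, from 3.79 in H/W to 4.26 in L-E. Its mean over all rats reached 4 only through S-D. Of 18 FXR targets and bile acid genes, which include Nr0b2, 3 passed: Slc27a5, the bile acid CoA ligase (13.43 in L-E and 12.03 in S-D), the uptake carrier Slco1b2 and the synthesis enzyme Hsd3b7. Cyp7a1, which catalyses the rate-limiting step from cholesterol to bile acids, lay between 9.15 and 10.19 in the group means (F-test adjusted p = 0.573), and Cyp8b1, which sets the share of cholic acid, was highest in L-E at 11.93 ± 0.90 (adjusted p = 0.0339).

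Among the remaining lists, 4 of 21 HNF4A targets passed (Apob, F10, Apoa2 and Apoh, with ranges of group means of 0.29 to 0.46), 3 of 10 estrogen-related genes (Serpina7, Hsd17b6 and Sult1e1), 2 of 18 coregulators and chaperones (Kat2b and Fkbp4), 0 of 24 glucocorticoid receptor targets and 0 of 9 other nuclear receptors. The share of all expressed genes was 8.98%. Hsd17b6, a steroid dehydrogenase, averaged 13.07 to 13.29 in the other groups and 10.63 in S-D. Kat2b, an acetyltransferase that acts as a coactivator, was lowest in H/W at 8.56 and highest in S-D at 9.61. When H/W replicate 3 was left out the CAR and PXR list gave 8 of 17, against 514 of 5388 expressed genes in that fit. The other lists of targets and partners gave the same counts as with it.

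**Figure D4:**
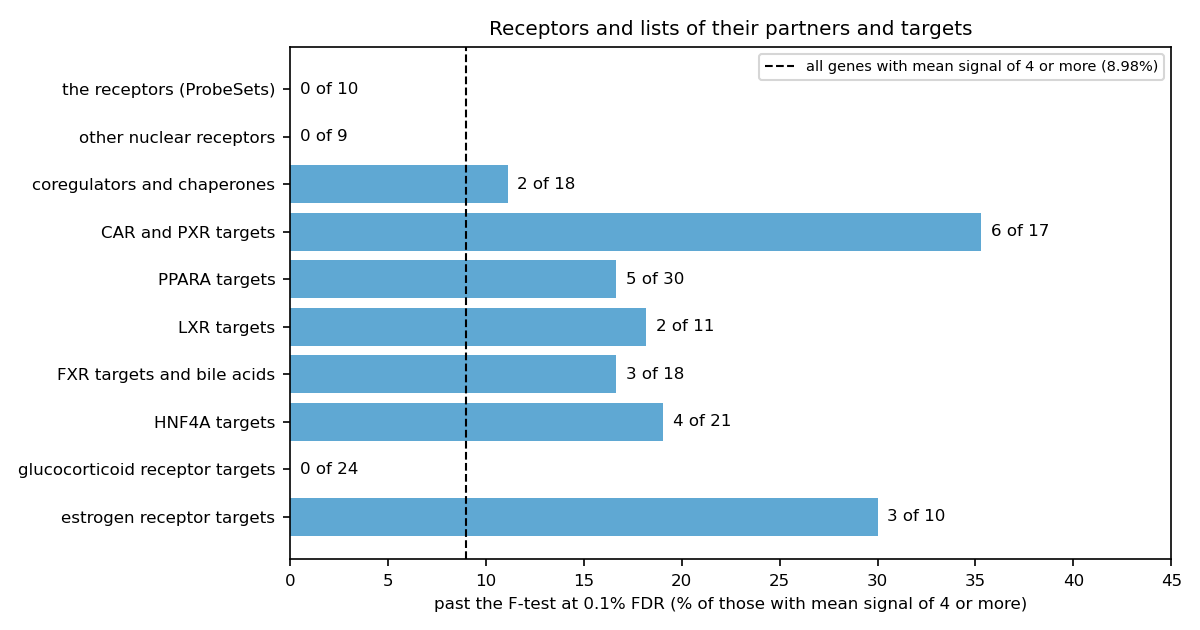
Share of each list past the F-test at 0.1% FDR (horizontal axis, in percent of members with a mean signal of 4 or more), with the count beside each bar, and the share of all 5388 expressed genes as the dashed line at 8.98%. The receptors stand at 0 of 10 and the CAR and PXR targets at 6 of 17.

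Within strains, receptors and their textbook targets were compared rat by rat after each group mean was removed. Of 16 planned pairs, 10 had both transcripts expressed, and 0 passed after adjustment over the 10 (permutation within strains, two-sided, adjusted p of 0.235 or more), with 1 at an unadjusted p under 0.05. That pair was Nr1h4 with the bile salt export pump Abcb11, with Pearson's r of -0.48 over 20 rats (permutation p = 0.0348) and Spearman's rho of -0.45 (permutation p = 0.0699). Leaving out the 2 rats farthest on Nr1h4 gave r = -0.62 (permutation p = 0.0231), and leaving out all Line-C rats gave r = -0.28 (permutation p = 0.314), against -0.49 to -0.58 when each other strain was left out. Nr0b2 with Cyp7a1 gave r = 0.49 (permutation p = 0.0572; rho = 0.43, p = 0.111) and r = 0.32 without the 2 farthest rats, and between 0.23 and 0.74 when each strain was left out in turn. Nr1h3 with Srebf1, the lipogenic factor that LXR turns on, gave r = 0.49 (permutation p = 0.0704; rho = 0.47, p = 0.0661) and r = 0.39 without the 2 farthest rats, and between 0.37 and 0.55 when each strain was left out in turn.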

How the data were processed

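Liver RNA of 20 rats, 1 array each, was measured on Affymetrix RAE230A arrays. The authors made the deposited log2 signals with GC-RMA, a method that models background from probe sequence, normalizes arrays to a common distribution and summarises each ProbeSet. Their processing notes name R 2.6.1, affy 1.12.0 and GCRMA 2.10.0. No intensity per probe was used here, and the number of arrays limits the precision. ProbeSets were named by the annotation given for the array, which names 1 symbol for 12789 of 15923. Scanner header files gave scan day (5 days), chip lot (4 lots), operator and fluidics station.

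A mean per group was fitted to all 20 arrays with limma 3.58.1 in R 4.3.3, with moderated variances and Benjamini-Hochberg adjustment over all ProbeSets. Differences are the first group named minus the second. Pairs were called at 1% FDR, the F-test at 0.1%, and the Ahr coefficient, the interaction and lines outside both parents at 5%. W/T came from variance components with strain as a random effect. Within-strain correlations used 100000 permutations within strains, adjusted over the pairs. A gene with several ProbeSets was represented in lists by the one with the highest mean. Promoter windows and motifs came from RefSeq on GRCr8.

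The members, lists and tests were chosen with earlier results of these data known. All member ProbeSets were named, and of each list up to 4 genes past the F-test with the largest range of group means, beside the targets of the pairs. Lists were 9 of partners and targets and 7 of cell type markers. The rule for genes most like a member named none, since it applied to members past the F-test. Alternatives were limma's trend, array weights, quantile normalization, equal array medians, a filter at a mean of 4, a replicate block, scan day as a random block (statmod 1.5.0), fits of 8 arrays, other FDR thresholds and leaving out each rat. The tests were checked on simulated data. Same-numbered rats of different groups did not deviate together, so replicate numbers were not used for pairing.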

Additional observations from a re-analysis of the deposited data

Results flagged for a closer look

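In each group of 4 rats a signal was marked where its gap to the nearest other rat was, as a share of the range of the group, above the 95% critical value of Dixon's test. Of 60 groups, 9 were marked, and chance marks about 1 in 20. The cause of none was tested.

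For Nr1i2, Line-A replicate 4 was low at 7.32 (gap of 0.8608 of the range) and L-E replicate 2 was high at 8.60 (0.9344). For Nr1h4, L-E replicate 3 was high at 8.10 (0.9078) and still under all rats of the other groups. For Nr1h3, Line-C replicate 3 was low at 10.13 (0.8618). For Rxra, Line-A replicate 1 was high at 7.56 (0.9091) and L-E replicate 3 low at 8.44 (0.8763). Under the limit of expression, Ppara was high in L-E replicate 4 at 1.97 (0.913) and in S-D replicate 4 at 2.11 (0.9534), and Esr1 was low in H/W replicate 3 at 2.21 (0.8976). The Rxra and Hnf4a signals of H/W replicate 3 had gaps under the critical value.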

How the results depend on the processing

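The 11 member differences that passed 5% FDR kept their direction under every setting run. Other differences did not: of the 100 of expressed members over the 10 pairs, 12 changed sign without H/W replicate 3, none of them past 5% FDR in either fit. H/W minus S-D was -0.33 with that array and 0.44 without it for Rxra, and -0.37 and 0.34 for Hnf4a (1369289_at), and Line-A minus H/W was -0.29 and 0.28 for Nr0b2. Counts of members called are followed by the share of all ProbeSets in the same fit. Line-C with L-E gave 2 at 1% FDR, and 0 with equal array medians (3.45%), with scan day as a random block (0.735%) or with the replicate block (3.08%), 1 with only the 8 arrays of the pair (1.35%), 4 at 5% FDR (15.8%) and 7 with array weights (40.7%). Line-A with L-E gave 0, and 5 with array weights (25.2%), 1 with 8 arrays (2.03%) and 4 at 5% FDR (27.5%). L-E with S-D gave 0, and 1 with limma's trend (5.06%), 4 with array weights (7.64%), 2 with quantile normalization (5.14%), 3 with the filter at a mean of 4 (12.3%), 2 with 8 arrays (2.81%) and 3 at 5% FDR (9.59%). With array weights Line-A with S-D gave 2 (46.3%), Line-C with S-D 1 (49.1%), H/W with L-E 1 (18.1%), H/W with S-D 1 (38.3%), the F-test 2 (35.5%), the interaction 3 (43.4%) and lines outside both parents 2 (5.56% for Line-A and 2.69% for Line-C). The F-test at 5% FDR, chosen after seeing the data, gave 4 (30.5%). Leaving out each rat in turn gave 0 to 3 members for Line-C with L-E, 0 to 5 for Line-A with L-E, 0 to 2 for L-E with S-D and for lines outside both parents, 0 to 1 for Line-A with H/W, Line-A with S-D, H/W with S-D, the interaction and the F-test, and 0 to 0 for Line-A with Line-C, Line-C with H/W, Line-C with S-D, H/W with L-E and the Ahr coefficient. The 5 of Line-A with L-E came without H/W replicate 3, when 23.4% of all ProbeSets were called. The median W/T of the members ranged over 0.458 to 0.775. The member values without that rat and the within-day comparison were chosen after seeing the data. Same-numbered rats correlated between -0.34 and 0.22 over 40 pairs, 6 of them over 0.1, and 3 of 20 rats were closest to their own number. The replicate block took the Line-C and L-E calls to adjusted p of 0.0119 for Nr1h3 and 0.0125 for Nr1h4 and changed no other call. The cause of these changes was not tested. Signals under 4 and the single ProbeSets of Ppara and Esr1 limit what could be seen.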

Other observations

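Markers of the cell types that liver tissue can hold were compared in the same way. The Kupffer cell and macrophage list, with 8 of 13 markers on the array and all 8 expressed, had 5 past the F-test at 0.1% FDR, against 8.98% of expressed genes. Its mean signal per rat was 7.52 to 7.62 in Line-A, 8.24 to 8.56 in Line-C, 7.96 to 8.30 in H/W, 8.18 to 8.76 in L-E and 8.32 to 8.80 in S-D, so that the Line-A rats lay under all others. Clec4f, a lectin of Kupffer cells, had a mean signal of 9.99 over all rats. The stellate and fibroblast list had 3 of 9 expressed markers past the F-test and averaged 4.48 to 4.69 in Line-A, 4.58 to 5.09 in Line-C, 4.39 to 4.90 in H/W, 4.31 to 4.58 in L-E and 4.96 to 5.72 in S-D. Of the other lists, 1 of 9 hepatocyte, 1 of 2 cholangiocyte, 1 of 4 endothelial, 1 of 3 lymphocyte and 0 of 3 erythroid and neutrophil markers passed. Without H/W replicate 3 the cholangiocyte list gave 2 and the endothelial list 0, and the others the same counts. In that fit 514 of 5388 expressed genes passed.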
